A study of Mus musculus with 28 samples.

Results

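The D-type cyclin genes Ccnd1, Ccnd2 and Ccnd3 and the genes of their kinase partners Cdk4 and Cdk6 were followed across pancreatic islet RNA from mice, with Mki67 set beside them as the marker of cycling cells. The members were the rows of the deposited table with these 5 symbols, 5 of 14219 genes, and all 5 passed the filter on low values. D-type cyclins bind and activate Cdk4 or Cdk6, and the active pair phosphorylates the retinoblastoma protein, which releases E2F transcription factors to drive genes of DNA replication. In mouse β cells Ccnd2 and Cdk4 are the members known to be required for postnatal growth of β-cell mass, and Mki67 encodes the Ki-67 protein present in cycling cells. The activity of these kinases is set largely by protein levels, phosphorylation and inhibitors, none of which were measured.

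The study compared islets of control mice with those of βKlf6KO mice, Klf6 being a zinc-finger transcription factor, with or without S961, a peptide antagonist of the insulin receptor. All mice were males of 10 to 12 weeks on a mixed C57Bl6 and 129sv background, and all carried loxP sites in both Klf6 alleles. The βKlf6KO mice also carried Cre in 1 Ins1 allele, which is active in β cells, while controls had no Cre. Islets were picked by hand and cultured overnight, and RNA came from 120 to 150 islets of each mouse. There were 6 libraries labelled control saline, 6 labelled βKlf6KO saline, 8 labelled control S961 and 8 labelled βKlf6KO S961. No source used here gives the dose or duration of S961. Whole islets hold other endocrine, vascular, stromal and immune cells beside β cells, and in such bulk RNA fewer cells of a type and less RNA per cell cannot be told apart.

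Libraries held 28868638 to 45001633 reads over the listed genes. Klf6 itself, the gene targeted, did not track the labelled genotype: mean Klf6 was 7.0 log2 CPM (reads scaled to library size, on a log2 scale) in libraries labelled control saline and 6.97 in βKlf6KO saline, a difference of -0.03 (limma adjusted p = 0.974). After S961 it was 6.94 in control and 7.22 in βKlf6KO, a difference of 0.28 (limma adjusted p = 0.517). Groups are therefore named by their labels throughout. The first principal component of the table held 54.9% of its variance and ran from -46.3 to 140. Its 3 highest scores were those of control S961 replicates 2 and 8 and control saline replicate 4, so results are also given without these 3 libraries where that matters. β-cell markers were abundant in every library, at a summed 53133 to 222079 CPM over 8 genes.

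Per kilobase of merged exon, Ccnd2 was the most abundant of the D-type cyclins and of all 5 members. Its level over all 28 libraries was 101 ± 17.4 CPM per kb (SD, n = 28), against 33.0 ± 3.81 for Ccnd1 and 2.16 ± 0.74 for Ccnd3. Of the kinases, Cdk4 stood at 30.0 ± 8.03 CPM per kb and Cdk6 at 0.57 ± 0.23. The order Ccnd2, Ccnd1, Cdk4, Ccnd3, Cdk6 held in 18 libraries. In 9 libraries Cdk4 lay above Ccnd1, so these neighbours did not differ beyond their spread. In 1 library Cdk6 lay above Ccnd3. Ccnd2 made up 74.0% of the D-type cyclin RNA per length, with a range of 67.1 to 79.2%, and Cdk4 made up 93.5 to 99.3% of the Cdk4 and Cdk6 RNA. Merged exons join all annotated transcripts of a gene and can be longer than the transcripts present. Ranks and shares between genes depend on these lengths, such as 3.249 kb for Cdk4 and 8.775 kb for Ccnd3, and other lengths were not tried. Without length, median CPM was 914 for Ccnd2, 153 for Ccnd1, 106 for Cdk4, 20.5 for Ccnd3 and 7.31 for Cdk6.

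**Figure D1:**
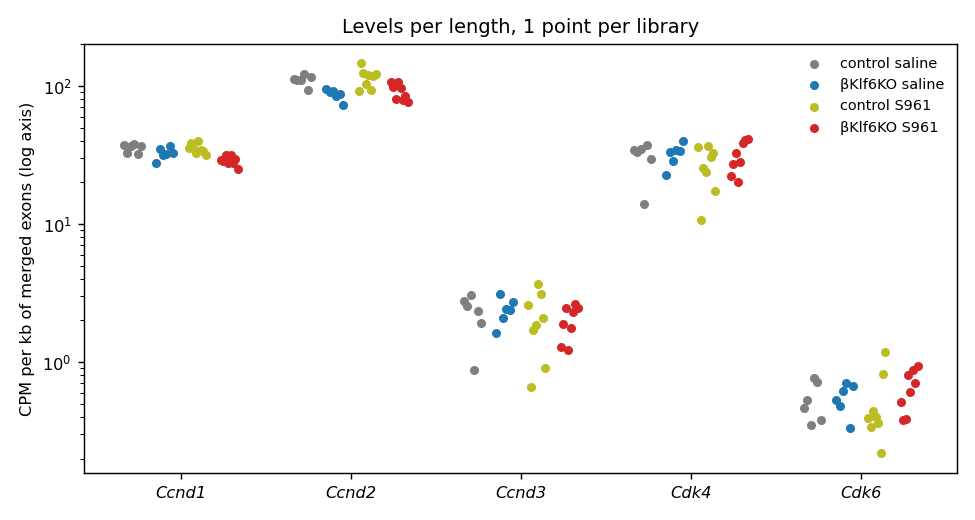
Level of each member in CPM per kb of merged exons, on a log axis, with 1 point per library coloured by labelled group. Ccnd2 lies above all other members in every library, Ccnd1 and Cdk4 overlap, and Ccnd3 and Cdk6 lie lowest.

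Ccnd1 (ENSMUSG00000070348, GRCm38 chromosome 7, 144929931 to 144939925, minus strand) encodes cyclin D1. Its lowest, median and highest values were 7.25, 7.44 and 7.49 log2 CPM in control saline, and 7.03, 7.26 and 7.44 in βKlf6KO saline. They were 7.21, 7.36 and 7.56 in control S961, and 6.89, 7.08 and 7.23 in βKlf6KO S961. The βKlf6KO S961 libraries were the lowest group, with all 8 below every control saline library and 6 of 8 below every control S961 library, and the other 3 groups overlapped each other. Group means ranked control saline (7.39 ± 0.11 SD, n = 6), control S961 (7.37 ± 0.12, n = 8), βKlf6KO saline (7.26 ± 0.14, n = 6) and βKlf6KO S961 (7.09 ± 0.11, n = 8), and the first 3 lay within about 1 SD of their neighbours.

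Ccnd2 (ENSMUSG00000000184, chromosome 6, 127125162 to 127152193, minus strand) encodes cyclin D2. Its lowest, median and highest values were 9.78, 10.04 and 10.17 log2 CPM in control saline, and 9.42, 9.71 and 9.81 in βKlf6KO saline. They were 9.77, 10.13 and 10.42 in control S961, and 9.49, 9.73 and 9.97 in βKlf6KO S961. Under each treatment the libraries labelled βKlf6KO lay at the low end, and the groups overlapped through a few low control libraries. The means were 10.02 ± 0.13 (SD, n = 6) in control saline, 9.68 ± 0.14 (n = 6) in βKlf6KO saline, 10.07 ± 0.22 (n = 8) in control S961 and 9.73 ± 0.19 (n = 8) in βKlf6KO S961. The order therefore separated the genotype labels, while saline and S961 within a label differed by less than 1 SD.

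Ccnd3 (ENSMUSG00000034165, chromosome 17, 47505051 to 47599691, plus strand) encodes cyclin D3, which is prominent in lymphoid cells. Its lowest, median and highest values were 2.94, 4.43 and 4.75 log2 CPM in control saline and 3.83, 4.39 and 4.76 in βKlf6KO saline. They were 2.53, 4.11 and 5.02 in control S961 and 3.42, 4.19 and 4.54 in βKlf6KO S961. All groups overlapped, and the 3 lowest values of the whole series were 2.53 and 3.0 in control S961 replicates 2 and 8 and 2.94 in control saline replicate 4. The 4 means lay between 3.99 and 4.36, a span smaller than the SD of either control group (0.66 and 0.85).

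Cdk4 (ENSMUSG00000006728, chromosome 10, 127063534 to 127067920, plus strand) encodes the kinase that pairs with these cyclins in β cells. Its lowest, median and highest values were 5.50, 6.78 and 6.92 log2 CPM in control saline and 6.19, 6.77 and 7.02 in βKlf6KO saline. They were 5.12, 6.50 and 6.89 in control S961 and 6.03, 6.62 and 7.06 in βKlf6KO S961. The same 3 libraries were lowest, at 5.12, 5.50 and 5.81, and the groups overlapped. The 4 means lay between 6.34 and 6.69.

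Cdk6 (ENSMUSG00000040274, chromosome 5, 3341485 to 3531008, plus strand) encodes the second kinase partner, and its libraries held 103 to 474 reads. Its lowest, median and highest values were 2.30, 2.79 and 3.43 log2 CPM in control saline and 2.21, 3.0 and 3.31 in βKlf6KO saline. They were 1.61, 2.46 and 4.06 in control S961 and 2.41, 3.20 and 3.71 in βKlf6KO S961. The control S961 group held the lowest and the highest library of the series, and its range enclosed those of the other 3 groups.

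Mki67 (ENSMUSG00000031004, chromosome 7, 135689784 to 135716361, minus strand) ran from -0.19 to 4.83 log2 CPM over the 28 libraries. Its lowest, median and highest values were -0.19, 0.42 and 2.58 log2 CPM in control saline and 4.03, 4.14 and 4.83 in βKlf6KO saline. They were 0.35, 1.55 and 4.35 in control S961 and 2.79, 3.42 and 3.81 in βKlf6KO S961. The saline groups did not overlap, whereas control S961 replicates 4 and 6, at 4.18 and 4.35, lay above every βKlf6KO S961 library.

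**Figure D2:**
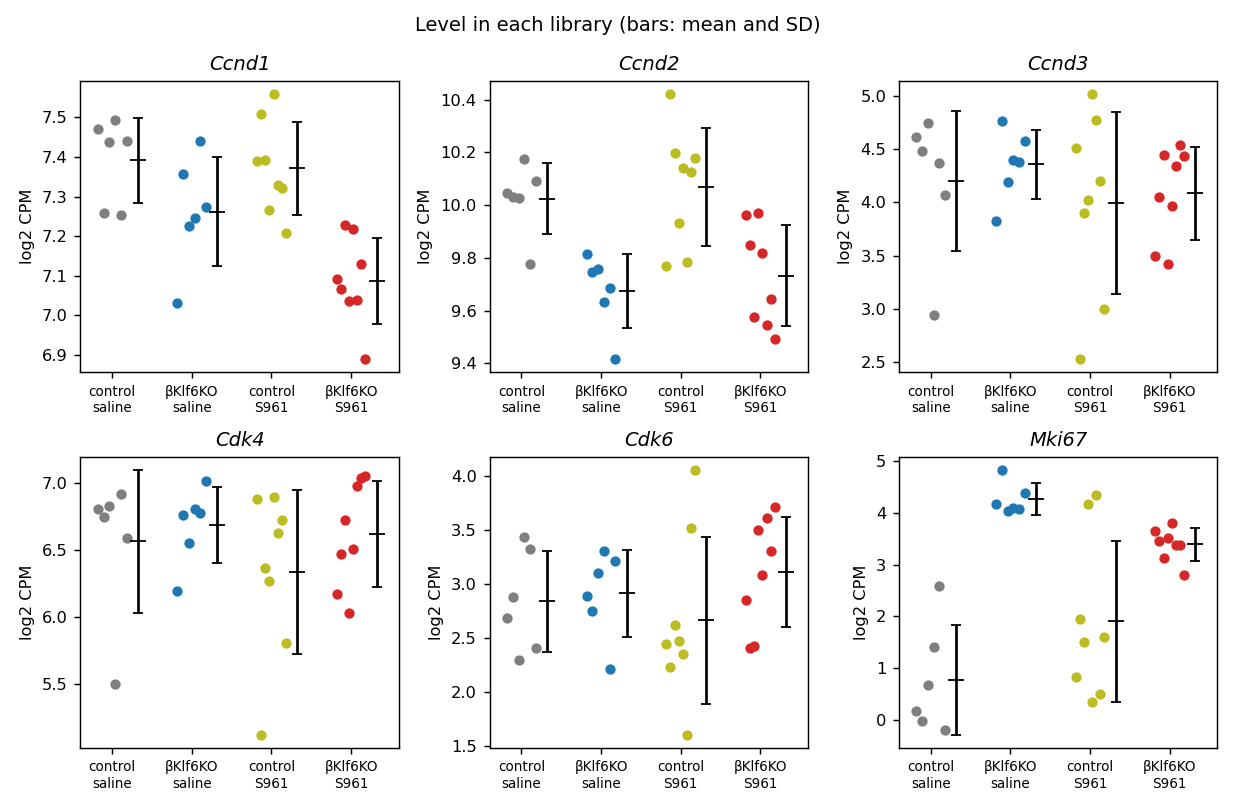
Level of each member and of Mki67 in log2 CPM, with 1 point per library in the 4 labelled groups and bars for the mean and SD beside them. Ccnd2 is lower in the groups labelled βKlf6KO under either treatment, Ccnd1 is lowest in βKlf6KO S961, Ccnd3 and Cdk4 share 3 low control libraries, and Mki67 is above 4 in all βKlf6KO saline libraries.

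Some exon bases of the members lie under genes of the opposite strand. The kit kept strand information, but no source used here says whether counting used it, so reads in those stretches could come from either gene. For Cdk4 the shared stretch was 641 bases of Tspan31, which was listed at 101 to 137 CPM. For Ccnd1 it was 1100 bases of Oraov1 (12.9 to 26.1 CPM), for Ccnd3 361 bases of Bysl (7.73 to 19.05 CPM), and for Ccnd2 368 bases of 9330179D12Rik (0.52 to 1.81 CPM).

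After saline, none of the 5 members passed the test between the genotype labels, where 2.78% of 13591 tested genes were called at a limma adjusted p below 0.05. Ccnd2 had the largest difference relative to its error, at -0.35 (SE 0.11, 95% interval -0.58 to -0.12, limma adjusted p = 0.0985), and all 6 βKlf6KO libraries lay below the control mean. Within the 4 sequencing lanes, each of which held libraries of all groups, its differences were -0.22, -0.27, -0.34 and -0.54. With the first principal component as a covariate Ccnd2 was called (-0.28, limma adjusted p = 0.0100), in a fit that called 2821 of 13591 genes. With macrophage and lymphocyte marker means as covariates its value was -0.08 (limma adjusted p = 0.757), in a fit that called 54. Ccnd1 differed by -0.13 (95% interval -0.29 to 0.03). The interval was -0.55 to 0.85 for Ccnd3, -0.42 to 0.66 for Cdk4 and -0.58 to 0.73 for Cdk6, so changes of these sizes in either direction were compatible with the spread. In the same libraries Mki67 was higher by 3.50 (SE 0.55, limma adjusted p = 5.71e-04) in βKlf6KO, an 11.3-fold difference with no overlap between groups.

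After S961, Ccnd1 and Ccnd2 fell in libraries labelled βKlf6KO relative to control, and the other 3 members did not pass the test. These 2 of 5 members compare with 4.36% of all tested genes called and 2.01% called lower. The Ccnd1 difference was -0.28 (SE 0.07, 95% interval -0.42 to -0.15, limma adjusted p = 0.0201), a level 0.82 times that of control. All 8 libraries lay below the control mean, and the differences in the 4 lanes were -0.26, -0.39, -0.23 and -0.26. The call held when any 1 of the 28 libraries was left out, with limma adjusted p from 0.0120 to 0.0496. It was lost when only the groups compared were fitted (limma adjusted p = 0.0942), after quantile normalization (-0.15, limma adjusted p = 0.368) and with the macrophage and lymphocyte means as covariates (-0.27, limma adjusted p = 0.0773).

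Ccnd2 fell by 0.34 on the log2 scale (SE 0.10, 95% interval -0.54 to -0.13, limma adjusted p = 0.0484), to 0.79 times control, and all 8 libraries lay below the control mean. In the lanes the differences were 0.12, -0.45, -0.43 and -0.58, so 1 lane went the other way. The call was close to the threshold. It was kept in 8 of 28 fits that left out 1 library, namely without control saline replicate 4 or 5, control S961 replicate 1, 4 or 6, βKlf6KO saline replicate 6, or βKlf6KO S961 replicate 1 or 4. It was lost without any of the other 20, and the limma adjusted p ranged from 0.0246 to 0.108. It was also lost with a floor at 1 CPM (limma adjusted p = 0.0531), with only the groups compared (0.169), with a replicate block (0.0597), after quantile normalization (-0.24, 0.113), without the 3 libraries named above (-0.26, 0.10) and with the macrophage and lymphocyte means as covariates (-0.12, 0.428).

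Of the remaining members after S961, Cdk6 differed by 0.45 (95% interval -0.12 to 1.01, limma adjusted p = 0.334), Cdk4 by 0.29 (-0.18 to 0.76) and Ccnd3 by 0.09 (-0.51 to 0.70). With the first principal component as a covariate, where 3829 of 13591 genes were called, Ccnd3 turned direction, at -0.30 (limma adjusted p = 0.00100). It also did so without the 3 libraries, at -0.32 (limma adjusted p = 0.345). Cdk4 was close to 0 under the same settings, at -0.01 and -0.0036. Mki67 was higher by 1.48 (SE 0.47, limma adjusted p = 0.0640) and did not pass the test with all libraries. Leaving out control S961 replicate 4 or 6 brought it below the threshold, the lowest limma adjusted p being 0.0128, as did the first principal component as a covariate (0.0210) and voom weights (0.0442).

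S961 against saline gave no call for any member. In control libraries 0% of the 13591 genes were called by limma and 104 had an unadjusted p under 0.05. Evenly spread p-values would give more than this, and more than the counts given below for βKlf6KO and for the difference of responses. The members' differences were -0.02 for Ccnd1, 0.04 for Ccnd2, -0.21 for Ccnd3, -0.23 for Cdk4 and -0.18 for Cdk6, with the widest interval, -0.86 to 0.44, for Ccnd3. In libraries labelled βKlf6KO 0% were called by limma as well, with 413 at an unadjusted p under 0.05 and 11 called with a floor at 1 CPM. Ccnd1 was the member farthest from 0 relative to its error, at -0.18 (95% interval -0.32 to -0.03, limma adjusted p = 1.0). All 8 S961 libraries lay below the saline mean. Ccnd2 differed by 0.06 (-0.16 to 0.28), Ccnd3 by -0.27, Cdk4 by -0.06 and Cdk6 by 0.20. Mki67 differed by 1.14 in control (limma adjusted p = 0.973). It differed by -0.88 in βKlf6KO, where the groups did not overlap (limma adjusted p = 1.0). The fit shared 1 spread over all groups. The SD of Mki67 was 0.30 after saline and 0.31 after S961 in βKlf6KO, against 1.06 and 1.56 in control. Under other settings the limma adjusted p of this difference was as low as 0.0779, with no call. The share of all genes whose groups did not overlap was not counted.

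The difference between the S961 responses of the genotype labels was tested directly, and 0% of genes were called by limma, with 350 at an unadjusted p under 0.05. For Ccnd1 it was -0.15 (95% interval -0.36 to 0.06), so a lower level in βKlf6KO after S961 is not shown to differ from that after saline. For Ccnd2 it was 0.01 (-0.29 to 0.32), and for Ccnd3, Cdk4 and Cdk6 it was -0.06, 0.17 and 0.37. The contrasts share libraries, so their values for a member are not independent of each other.

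**Figure D3:**
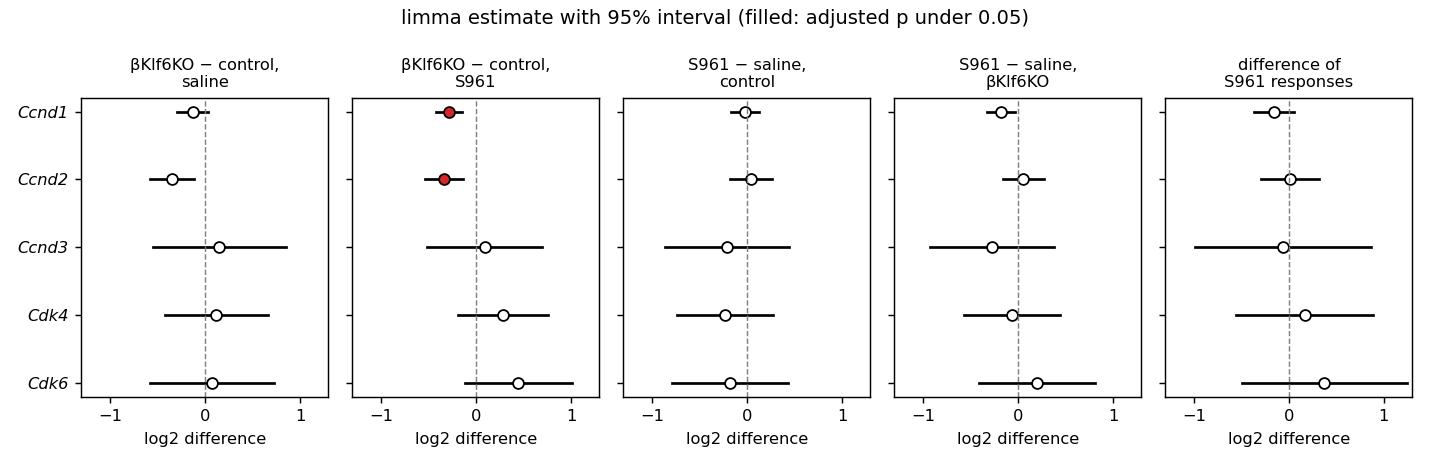
Differences in log2 CPM for the 5 members in the 5 comparisons, as limma estimates with 95% intervals, filled where the adjusted p was below 0.05. Only Ccnd1 and Ccnd2 in the comparison of labels after S961 are filled, and Ccnd2 sits at about the same place after saline.

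Per length, the summed D-type cyclin RNA was 149 ± 11.6 CPM per kb (SD, n = 6) in control saline and 122 ± 7.67 (n = 6) in βKlf6KO saline. It was 153 ± 18.6 (n = 8) in control S961 and 122 ± 12.1 (n = 8) in βKlf6KO S961. The share of Ccnd2 in it was 74.5 ± 1.34%, 71.2 ± 3.26%, 75.3 ± 3.16% and 74.5 ± 2.90% in the same order. These sums and shares are descriptions of values already tested gene by gene.

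The other genes of the route from the cyclins to E2F, a list of 35 that holds the retinoblastoma family, E2F and DP factors, E-type cyclins with Cdk2, Cdk inhibitors and regulators of D-type cyclins, gave few calls. Of 32 tested, 2 rose and 0 fell in βKlf6KO after saline, with a median difference of 0.05 against 0.00 over all genes and 2.09% of all genes called higher. Ccne1, the cyclin E1 gene that acts with Cdk2 after the D-type cyclins, rose by 0.46 (limma adjusted p = 0.0373), from 1.39 to 1.71 log2 CPM in control to 1.74 to 2.23 in βKlf6KO. Cdkn2c, which encodes the p18 inhibitor of Cdk4 and Cdk6, rose by 0.60 (limma adjusted p = 0.0359), from 2.86 to 3.68 in control to 3.57 to 4.28. Ccne1 lost its call without control saline replicate 2, 3, 4, 5 or 6 or βKlf6KO saline replicate 1, 3, 4, 5 or 6, with a limma adjusted p up to 0.110. Cdkn2c lost its call without control saline replicate 2, 4 or 6 or βKlf6KO saline replicate 1, 2, 4, 5 or 6, with a limma adjusted p up to 0.104. With only the groups compared, the limma adjusted p was 0.0693 for Ccne1 and 0.0697 for Cdkn2c, with the marker means as covariates 0.558 and 0.269, and for Cdkn2c with a replicate block 0.0763.

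After S961, 3 of the 32 rose and 0 fell, with a median of 0.05 against 0.02 over all genes and 2.35% of all genes called higher. Ccne1 rose by 0.49 (limma adjusted p = 0.0145), with 7 of 8 libraries above every control library. Cdkn1a, the p21 inhibitor gene induced by p53, rose by 0.76 (limma adjusted p = 0.0171). Cdk2, the partner of cyclin E, rose by 0.53 (limma adjusted p = 0.0346), and lost its call without control S961 replicate 2, 3 or 5 or βKlf6KO S961 replicate 5, 6, 7 or 8 (limma adjusted p up to 0.0853). None of the 3 was called with only the groups compared (limma adjusted p = 0.0920 for Ccne1, 0.103 for Cdkn1a and 0.133 for Cdk2) or with the marker means as covariates (0.120, 0.147 and 0.335). Cdk2 was also lost after quantile normalization (0.175) and without the 3 libraries of highest component score (0.0704). After quantile normalization Ccne1 differed by 0.21 after saline and 0.23 after S961 and was called in neither comparison (limma adjusted p = 0.549 and 0.288).

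Of the genes that E2F is known to drive in S phase and mitosis, a minority passed the test between the genotype labels. Of 17 tested from a list of 18, 7 rose and 0 fell in βKlf6KO after saline, where 2.09% of all genes were called higher, and the other 10 did not pass. The median difference of the 17 was 0.69, against 0.00 over all genes. Cdc6, which licenses replication origins, rose by 2.33 (limma adjusted p = 4.46e-04), the mitotic kinase gene Cdk1 by 2.65 (limma adjusted p = 6.95e-04) and cyclin A2 gene Ccna2 by 3.41 (limma adjusted p = 7.33e-04), each with no overlap between groups. Cdc6 lay below 1 CPM in every control saline library. A floor at 1 CPM made all those values equal and so removed their spread. Its difference was then 0.85 (limma adjusted p = 3.38e-04), and this call is not a separate check. With the marker means as covariates Cdk1 and Ccna2 differed by 2.27 and 3.06 and were not called (limma adjusted p = 0.0638 and 0.0530). After S961, 4 of 17 rose and 0 fell, where 2.35% of all genes were called higher, with a median of 0.53 against 0.02 over all genes. Cdk1 rose by 1.51 (limma adjusted p = 0.0265), Cdc6 by 1.15 (0.0330) and the helicase subunit gene Mcm7 by 0.65 (0.0308). These 3 calls after S961 were each lost without control S961 replicate 2 or 3 or βKlf6KO S961 replicate 6, 7 or 8. Cdk1 and Cdc6 were also lost without control S961 replicate 5, and Cdc6 without βKlf6KO S961 replicate 5, and the highest limma adjusted p over these was 0.0778. They were lost as well with only the groups compared (limma adjusted p = 0.120, 0.119 and 0.124 for Cdk1, Cdc6 and Mcm7) and with the marker means as covariates (0.171, 0.213 and 0.334). Without the 3 libraries Cdk1 and Cdc6 were at 0.0550 and 0.0507, and Cdc6 was at 0.161 with a floor at 1 CPM and 0.158 after quantile normalization. Neither list had a call in the other 3 comparisons.

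Some markers of other cells were called between the genotype labels as well, where 2.09% of all genes were called higher after saline and 2.35% after S961. The 12 macrophage markers summed to 105 to 143 CPM in control saline and 136 to 683 in βKlf6KO saline, and to 109 to 188 in control S961 and 133 to 397 in βKlf6KO S961, with 4 and 1 of 12 called higher in βKlf6KO. The 10 fibroblast and stellate markers summed to 21.0 to 46.4 and 31.9 to 183 CPM after saline and to 21.1 to 71.2 and 48.4 to 139 after S961, with 2 and 5 of 10 called higher. Lymphocyte markers, of which 9 of 10 were in the table and 5 were tested, summed to 2.26 to 8.80 and 2.72 to 69.3 CPM after saline and to 1.57 to 13.2 and 2.11 to 28.1 after S961, with 2 and 0 called higher. Cd3d was at 0 reads in at least 14 libraries. The 11 acinar markers summed to 5706 to 38636 CPM in control S961 and 25143 to 104539 in βKlf6KO S961, with a median difference of 0.95, 11 of 11 positive and 0 called. The 9 ductal markers summed to 509 to 2568 and 1845 to 6105 CPM in the same groups, with a median difference of 1.03, 8 of 9 positive and 1 called higher. After saline the medians were -0.05 for acinar and 0.20 for ductal markers, with 0 called. Of 8 β-cell markers, 2 were called lower after saline, where 0.692% of all genes were, and 3 after S961, where 2.01% were. The 8 include Ins1, of which 1 allele carried Cre in βKlf6KO mice only, so it is not a neutral marker between these labels. The median of the 8 was -0.23 after saline, with 3 of 8 positive, and -0.43 after S961, with 1 of 8 positive.

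Ccnd2 ran against the macrophage markers across libraries, and against several other marker lists. The mean of the 12 markers and Ccnd2 had r = -0.85 over 28 libraries (rho = -0.86, permutation p adjusted over 45 relations 7.50e-05 and 2.25e-04), with r = -0.91, -0.79, -0.90 and -0.92 within the lanes and -0.80 without the 2 libraries farthest from the median. Centred on the labelled group means it was -0.73. With the fibroblast and stellate mean Ccnd2 had r = -0.77 (rho = -0.74, adjusted permutation p = 7.50e-05 and 3e-04, and -0.68 without 2 libraries), and Ccnd1 had r = -0.61 (rho = -0.64, adjusted permutation p = 0.00278 and 0.00208, and -0.63 without 2 libraries). Within the lanes these ran from -0.64 to -0.96 for Ccnd2 and from -0.36 to -0.82 for Ccnd1. Centred on the group means the fibroblast relation was -0.55 for Ccnd2 (adjusted permutation p = 0.0101) and -0.23 for Ccnd1 (adjusted permutation p = 0.398), and in βKlf6KO S961 alone r was 0.21 for Ccnd1. With the ductal mean Ccnd2 had r = -0.68 (rho = -0.61, adjusted permutation p = 2.50e-04 and 0.00266), -0.52 without 2 libraries and -0.62 centred. In the lanes that relation was 0.61, -0.84, -0.86 and -0.57, so 1 lane went the other way. Ccnd1 with the ductal mean had r = -0.53 (rho = -0.45, adjusted permutation p = 0.00765 and 0.0351), -0.35 without 2 libraries and -0.28 centred (adjusted permutation p = 0.264), with 0.30, -0.45, -0.93 and -0.84 in the lanes. Ccnd2 also had r = -0.63 with the other endocrine, -0.59 with the lymphocyte, -0.54 with the acinar and -0.21 with the β-cell mean. Adjusted permutation p was 0.00112, 0.00457, 0.00751 and 0.378 in that order. Without 2 libraries r was -0.49, -0.51, -0.27 and -0.03. Centred it was -0.62, -0.38, -0.50 and -0.55 (adjusted permutation p = 0.00724, 0.119, 0.0509 and 0.0195). With the endothelial and the Schwann and glial means r was -0.11 and -0.16. Such relations were not particular to Ccnd2. Ccnd3 had r = 0.89 with the β-cell and 0.81 with the other endocrine mean. Cdk4 had r = 0.81 with the ductal, 0.79 with the other endocrine, 0.73 with the β-cell and 0.72 with the acinar mean. Cdk6 had r = 0.55 with the acinar and -0.51 with the β-cell mean, and Ccnd1 -0.50 with the macrophage mean. Ccnd2, Ccnd3 and Cdk4 also followed the first principal component (r = 0.71, -0.96 and -0.96). The part of any of these cells in the Ccnd1 and Ccnd2 differences was not tested. The fits with macrophage and lymphocyte means as covariates cannot separate it from the genotype label. Markers of both lists were themselves called higher in βKlf6KO after saline, 4 of 12 and 2 of 5. Those covariates also lowered the calls over all genes, from 378 to 54 after saline and from 593 to 51 after S961.

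Across the 28 libraries Mki67 had no gap above 0.63 log2 CPM, so each member was related to it over all libraries, in a family of 5 relations. Ccnd2 ran against Mki67, with r = -0.63 (permutation p = 2.90e-04, adjusted 0.00145) and rho = -0.60 (permutation p = 0.00114, adjusted 0.00570). Without the 2 libraries farthest from the Mki67 median, control saline replicates 2 and 6, r was -0.61, and within the lanes, of 7 libraries each, it was -0.30, -0.72, -0.80 and -0.86. Ccnd1 had r = -0.50 (permutation p = 0.00697, adjusted 0.0174) but rho = -0.40 (permutation p = 0.0345, adjusted 0.0863), so the rank relation did not pass. Its r was -0.51 without the 2 libraries and -0.76, -0.70, -0.57 and -0.24 within the lanes. Ccnd3, Cdk4 and Cdk6 had r = 0.02, 0.03 and 0.04 (adjusted permutation p = 0.915 for each).

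These relations followed the labelled groups. Centred on the group means, r was -0.25 for Ccnd2 and -0.19 for Ccnd1 (adjusted permutation p = 0.650 for both). Within groups, with no test, Ccnd2 had r = -0.62 in control saline, -0.07 in βKlf6KO saline, -0.39 in control S961 and 0.77 in βKlf6KO S961. Among control saline libraries replicate 5 had the highest Mki67 (2.58) and the lowest Ccnd2 (9.78). In control S961, replicates 4 and 6 with Mki67 above 4 had Ccnd2 at 9.93 and 9.78, below the group median of 10.13. The lowest Ccnd2 of that group, 9.77, was in replicate 1, where Mki67 was only 0.83. Ccnd1 had r = -0.31, 0.24, -0.42 and 0.54 in the same order of groups, again negative in control libraries and positive in βKlf6KO S961.

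**Figure D4:**
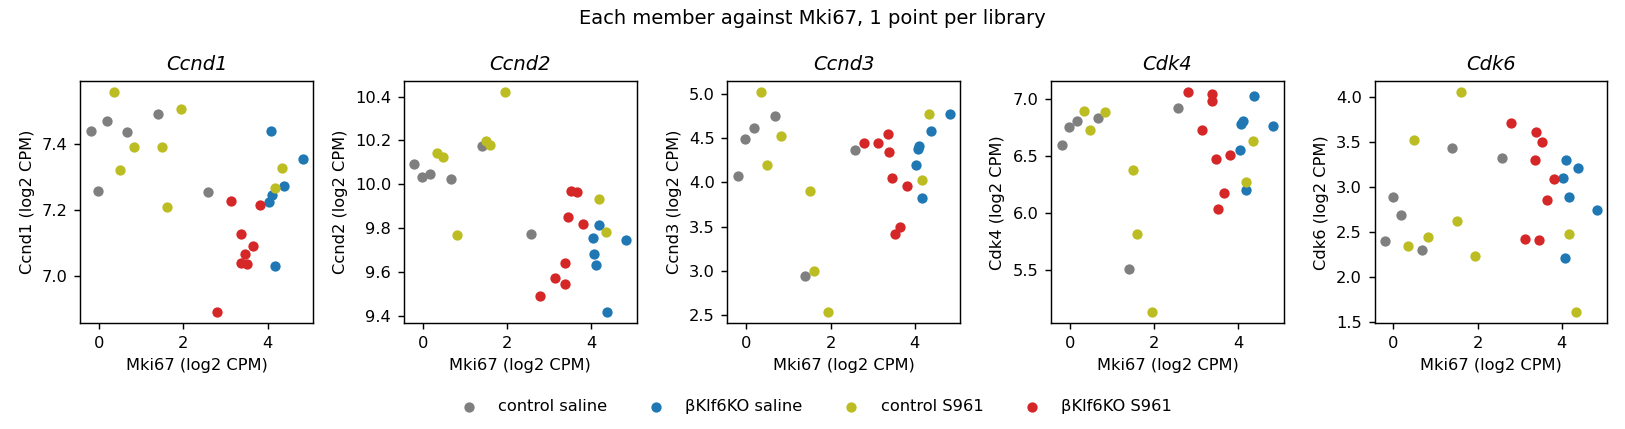
Each member in log2 CPM against Mki67 in log2 CPM, with 1 point per library coloured by labelled group. Ccnd2 and Ccnd1 are lower where Mki67 is higher (r = -0.63 and -0.50), largely through the position of the groups, while Ccnd3, Cdk4 and Cdk6 show no slope.

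Among the members themselves, in 10 relations over 28 libraries, Ccnd3 and Cdk4 ran together most closely. Their r was 0.93 and rho 0.80 (adjusted permutation p = 1.00e-04 for each), with 0.96, 0.97, 0.90 and 0.99 within the lanes and 0.87 without the 2 libraries farthest from the median. Ccnd2 ran against Cdk4, with r = -0.68 and rho = -0.62 (adjusted permutation p = 2.50e-04 and 0.00260) and -0.55 without 2 libraries. In the lanes r was 0.02, -0.67, -0.81 and -0.78, so the relation was not seen in 1 lane. Ccnd1 with Ccnd2 (r = 0.54), Ccnd1 with Cdk6 (-0.51) and Ccnd2 with Ccnd3 (-0.55) passed over all libraries. None of the 3 passed without the 2 libraries farthest from the median, where r was 0.43, -0.42 and -0.40 (adjusted permutation p = 0.0669, 0.0669 and 0.0720). Centred on the group means, r was 0.23, -0.48 and -0.67 (adjusted permutation p = 0.445, 0.0309 and 0.00180), and the last 2 relations were negative in all 4 groups. In the lanes r was 0.14, 0.72, 0.87 and 0.44 for Ccnd1 with Ccnd2, -0.69, -0.52, -0.25 and -0.70 for Ccnd1 with Cdk6, and 0.05, -0.53, -0.75 and -0.75 for Ccnd2 with Ccnd3.

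Ccnd3 and Cdk4 followed the first principal component almost wholly, with r = -0.96 for each (rho = -0.92 and -0.89, adjusted permutation p = 1.67e-05 and 2.50e-05 in a family of 5) and -0.94 and -0.92 without 2 libraries. Since the component is built from all genes, theirs included, this places them rather than tests them. Of 13584 genes, 6.57% had an r with the component below that of Ccnd3, and 6.63% below that of Cdk4. Genes that follow 1 component this closely also run together, so the r of 0.93 between Ccnd3 and Cdk4 is not a separate result. Ccnd2 followed it in the other direction, with r = 0.71, and Ccnd1 and Cdk6 had r = 0.17 and 0.14. The negative relations of Ccnd2 with Cdk4 and with Ccnd3 join genes that follow this component in opposite directions. They are therefore not separate results either. Across 13584 genes, which are not independent replicates, the correlation with this component was lower for genes whose longest transcript was richer in GC (Spearman's rho = -0.81). Ccnd3 and Cdk4 had the highest GC content of the members, 56.7% and 53.3%, against a median of 49.2%, and Ccnd1 had 50.9%, Ccnd2 47.1% and Cdk6 45.1%. With the component removed from each gene, Ccnd3 and Cdk4 had r = -0.50 and -0.46 with Mki67 (adjusted permutation p = 0.0148 and 0.0179). These relations passed in only 1 of 6 other settings. With the component kept, r was 0.02 and 0.03, and -0.09 and -0.19 when centred on the group means. Little of either gene's variation is left once a component at r = -0.96 is removed.

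**Figure D5:**
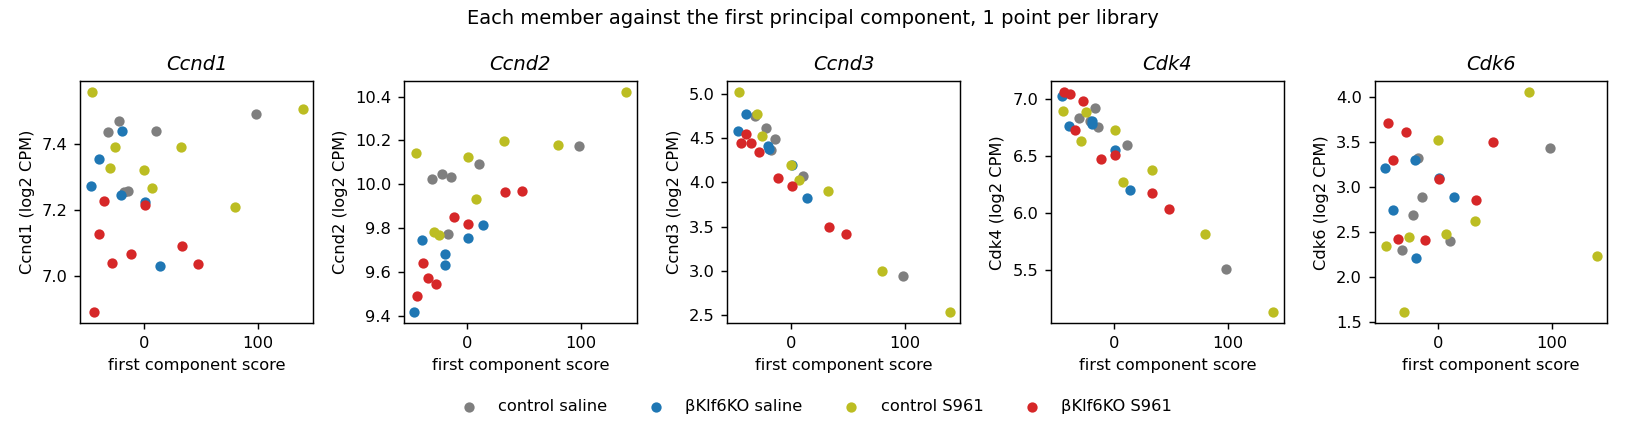
Each member in log2 CPM against the library's score on the first principal component (no unit), with 1 point per library coloured by labelled group. Ccnd3 and Cdk4 fall steadily along it (r = -0.96 each), Ccnd2 rises, and 3 control libraries lie at scores of 79.8 or more.

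The promoters of the pair that ran together, Cdk4 and Ccnd3, are shown to compare their motifs. RefSeq promoter entries on GRCm38.p6 were found for 3 of the 5 members, Cdk4, Cdk6 and Ccnd3, the last with 2 start sites. Each run is the 250 bases before the start on the plus strand, 5′ to 3′, at chr10:127063285-127063534 for Cdk4 and at chr17:47504801-47505050 and chr17:47593217-47593466 for the outer and inner start of Ccnd3. Capitals mark the E-box CACGTG, the site bound by Myc and related factors, and the GC box GGGCGG on either strand (CCGCCC where it is on the minus strand).
Cdk4: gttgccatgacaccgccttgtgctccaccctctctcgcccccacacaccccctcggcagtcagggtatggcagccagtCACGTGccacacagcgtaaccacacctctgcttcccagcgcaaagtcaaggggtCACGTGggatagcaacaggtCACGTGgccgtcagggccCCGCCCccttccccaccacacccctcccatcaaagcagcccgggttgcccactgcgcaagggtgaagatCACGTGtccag
Ccnd3 outer start: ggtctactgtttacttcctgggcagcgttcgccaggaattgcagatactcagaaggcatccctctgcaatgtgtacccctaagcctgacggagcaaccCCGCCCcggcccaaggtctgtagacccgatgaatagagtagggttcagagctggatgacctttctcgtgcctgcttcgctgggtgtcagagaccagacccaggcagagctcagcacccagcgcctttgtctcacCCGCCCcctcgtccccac
Ccnd3 inner start: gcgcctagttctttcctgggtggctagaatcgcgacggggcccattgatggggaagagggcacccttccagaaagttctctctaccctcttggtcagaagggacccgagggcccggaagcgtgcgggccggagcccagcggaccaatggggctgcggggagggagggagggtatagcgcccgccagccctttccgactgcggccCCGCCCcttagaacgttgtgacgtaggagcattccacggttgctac
The Cdk4 promoter held 4 E-boxes, 172, 118, 98 and 11 bases before the start, and 1 GC box. At least 1 E-box was found in 6.02% of 32851 mouse promoter windows of this length, and 4 or more in 7 of them. Neither Ccnd3 window held an E-box, and they held 2 and 1 GC boxes, a motif present in 32.7% of windows. The Cdk6 window held 1 E-box. The E2F motifs TTTCCCGC and TTTGGCGC, on either strand, were in none of these 4 windows and in 1.3% of all. No matches overlapped in these windows, and a match says only that these letters are present.

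By Pearson's r over the 28 libraries among 12586 genes with names that are not predicted, the genes most like each member were found as a description. For Cdk4 they were Eif3d (0.99), Psmc3 (0.99) and Rtfdc1 (0.99), and for Ccnd3 Agpat1 (0.99), Lypla2 (0.99) and Bag6 (0.99). For Ccnd2 they were Zfp398 (0.96), Atf6 (0.95) and Tmod2 (0.95), and for Cdk6 Slc39a8 (0.95), Arhgef26 (0.95) and Nfib (0.94). Ccnd1 had the least close neighbours, Sec24d (0.92), Tbl2 (0.86) and Prrc1 (0.84). No other member was among the 3 genes nearest to any member.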

How the data were processed

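The authors deposited 1 table of log2 CPM values for 28 islet libraries. STAR 2.5.3a, HTSeq 0.9.1, edgeR and the build GRCm38 are named in the submitters' processing notes, and no source used here gives the handling of strand. The deposited log2 values inverted to whole reads (within 0.05) after removing an added 0.5 reads, for 100% of values. A count of 0 allows up to 3 reads, or 0.0685 to 0.105 CPM, for counting error only. Each library was 1 mouse, and among 86 pairs within groups none agreed within sampling noise (smallest chi-square per degree of freedom 33.4).

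Genes at 1 CPM or more in at least 6 libraries were kept (13591, with 628 removed). The model had 1 mean per group and all 28 libraries, and was fitted in limma (version 3.58.1, under R 4.3.3) with moderated variances and an intensity trend. Tests were two-sided, with Benjamini-Hochberg adjustment over all tested genes and a threshold of 0.05. Differences are in log2 CPM. Relations used 100000 permutations (Python 3.11.15), whose smallest p is 1.00e-05 before adjustment. Levels per length used merged exons of GENCODE M21 on GRCm38. The scripts were tested on simulated data.

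The members and lists were chosen with earlier results of these data known. Named genes were the members, Mki67 and Klf6, up to 4 called pathway genes and 3 called E2F targets per comparison by smallest p, and the 3 genes most like each member. E2f8, Cdkn2a and Skp2 of the pathway list, Mybl2 of the target list and the lymphocyte marker Cd3e had no row in the table used. Overlapping genes and marker relations were added after the values were seen. The settings varied were no filter, a floor at 1 CPM, only the groups compared, lane, replicate block, quantile normalization, first principal component, marker means, 3 libraries left out, voom weights and each library left out.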

Additional observations from a re-analysis of the deposited data

Results flagged for a closer look

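In 24 sets of values (6 genes in 4 groups), 2 held a library that stood apart by Dixon's test at 95%, and chance alone gives about 1 in 20. The lowest Cdk4 value of control saline, 5.50 log2 CPM in replicate 4, lay below the next library at 6.59. The lowest Ccnd2 value of the same group, 9.78 in replicate 5, lay below the next at 10.03, a gap only just past the critical value.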

How the results depend on the processing

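The labels' replicate numbers showed no clear pairing over all genes, with values centred on the group means. The 38 same-numbered pairs across groups had correlations of -0.71 to 0.85 (median -0.07), and 2 of 28 libraries correlated best with their own number. The labels do not say whether a number marks a shared litter or day, and this check cannot settle that. With a replicate block 1 member was called after S961, where 614 of 13591 genes were. The S961 difference of Cdk6 in βKlf6KO became -0.055 and that of Ccnd1 in control 0.010. Leaving out each library gave 214 to 532 genes called between labels after saline and 177 to 817 after S961, lowest without control saline replicate 1 or βKlf6KO saline replicate 6 and without βKlf6KO S961 replicate 6, and 1 to 2 members called after S961.

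After saline, genes called numbered 2821 with the first principal component as a covariate, 54 with macrophage and lymphocyte means and 690 without 3 libraries. After S961 they numbered 35 with only the groups compared, 392 after quantile normalization, 3829 with the component and 51 with marker means. S961 in βKlf6KO gave 11 with a floor at 1 CPM. The component gave 1 member called after saline. After S961, 3 members were called with the component. With the floor 1 member was called, in a fit that called 541 of 13591 genes, and 1 without 3 libraries, where 858 genes were. With only the groups compared, after quantile normalization or with marker means, 0 were called. The causes were not tested.

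Directions turned as follows for members not called in the fit without covariates, though Ccnd3 after S961 was called with the component. Between labels after saline, Cdk6 was -0.031 (quantile) and -0.21 (marker means). Cdk4 was -0.11 (component), -0.38 (marker means) and -0.094 (without 3 libraries), and Ccnd3 -0.15, -0.35 and -0.099 in that order. Klf6 was 0.087 (quantile), 0.10 (component) and 0.10 (without 3 libraries). After S961, Cdk4 was -0.011 (component), -0.24 (marker means) and -0.0036 (without 3 libraries), and Ccnd3 -0.017 (quantile), -0.30, -0.54 and -0.32. For S961 in control, Ccnd2 was -0.0033 with the component and without 3 libraries, Ccnd1 0.0043 without 3 libraries and Ccnd3 0.0026 with the component. For S961 in βKlf6KO, Ccnd2 was -0.0014 (quantile) and Cdk4 0.029 (component). In the difference of responses Ccnd2 was -0.010 (quantile) and -0.039 (marker means).

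With each library left out, differences after saline spanned -0.034 to 0.21 for Cdk6, -0.094 to 0.22 for Cdk4, -0.099 to 0.26 for Ccnd3 and -0.16 to 0.10 for Klf6, and after S961 -0.12 to 0.24 for Ccnd3. For S961 in control they spanned -0.0067 to 0.086 for Ccnd2, -0.048 to 0.0029 for Ccnd1 and -0.27 to 0.073 for Klf6, and in βKlf6KO -0.16 to 0.023 for Cdk4. In the difference of responses they spanned -0.037 to 0.065 for Ccnd2, -0.0055 to 0.38 for Cdk4 and -0.27 to 0.19 for Ccnd3.

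Against Mki67, r for Ccnd1 was -0.29 after quantile normalization and -0.19 centred on group means, and for Ccnd2 -0.25 centred. For Ccnd3 it was -0.089 (quantile), -0.094 (centred), -0.50 (component removed) and -0.22 (without 3 libraries), and for Cdk4 -0.031, -0.19, -0.46 and -0.23. For Cdk6 it was -0.18 centred and -0.019 without the 2 farthest libraries.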
